A study of Homo sapiens with 16 samples.

Results

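The 10 genes described here encode plasma proteins made by hepatocytes (ALB, AFP, TTR, TF, RBP4, AHSG, HPX and SERPINA1) and the 2 subunits of the asialoglycoprotein receptor (ASGR1 and ASGR2). The rule that lists them goes by gene name and uses no measured value, although the set was drawn up with earlier results of these data known. All 10 were found among the 58735 genes of the count table, and all passed the filter on low counts that left 18121 genes for testing.

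RNA was sequenced from differentiated HepaRG cells, a human liver line in which hepatocyte-like cells grow beside cells like those of the bile duct. Treatment lasted 3 days in 2% DMSO medium under 1 of 4 conditions, with 4 libraries each. The combination group received 30 nM formoterol, a beta2-adrenergic agonist, together with 0.25 mM palmitic acid and 0.5 mM oleic acid. The fatty acid group received both fatty acids at those doses without formoterol, and the formoterol group received 30 nM formoterol without fatty acids. The control group received the vehicle with 1% BSA. HepaRG is a tumour-derived line from 1 patient, so every library shares 1 genetic background. The labels call the libraries independent replicates but do not say that they were separate cultures, so the p-values below measure the spread between these samples.

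Hepatocytes secrete most of the protein in blood plasma, and the mRNAs of these proteins are among the most abundant in the liver. Albumin carries fatty acids and other ligands, while alpha-fetoprotein is its fetal counterpart and falls to a low level after birth. The asialoglycoprotein receptor sits on the hepatocyte surface and takes up glycoproteins that have lost their terminal sialic acid, so these genes cover both the release of plasma proteins and the removal of aged ones.

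Libraries held 32.5 × 1e6 to 65.7 × 1e6 counts, with formoterol replicate 4 the deepest. In these genes combination replicate 2 was unlike the remaining 3 libraries of its group. The median log2 difference of the 10 members from their control means was -0.83 in it and 0.90 to 1.15 in the remaining 3. Together the members took 1.97% of its counts, against 4.35% to 4.74% in the other 3 combination libraries. Control replicate 3 was below the control mean for all 10 members, by a median log2 difference of -0.32. Counts of genes called and each member's difference in the combination against control are therefore given with and without combination replicate 2, whose spread also enters the error shared by all groups.

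Promoter sequence is shown for ALB and AFP, neighbours on chromosome 4 that were the highest and the lowest member. The windows run from 250 bases before to 50 bases after the start that RefSeq gives (GRCh38.p14) and are written 5′ to 3′ on the gene's strand. These starts are not those of the gene models given below. The ALB and AFP windows lie inside their gene models, which begin at 73397114 and 73431138. Capitals mark the CCAAT box, a common promoter motif read here on both strands (CCAAT or its reverse complement ATTGG). The ALB window is chr4:73404037-73404336 on the plus strand, and the AFP window chr4:73435971-73436270 on the plus strand.
ALB: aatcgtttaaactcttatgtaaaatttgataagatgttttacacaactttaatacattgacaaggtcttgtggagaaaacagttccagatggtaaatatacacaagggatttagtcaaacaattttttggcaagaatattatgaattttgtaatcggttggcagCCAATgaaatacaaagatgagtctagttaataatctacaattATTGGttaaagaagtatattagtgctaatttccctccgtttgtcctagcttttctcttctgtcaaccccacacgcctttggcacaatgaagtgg
AFP: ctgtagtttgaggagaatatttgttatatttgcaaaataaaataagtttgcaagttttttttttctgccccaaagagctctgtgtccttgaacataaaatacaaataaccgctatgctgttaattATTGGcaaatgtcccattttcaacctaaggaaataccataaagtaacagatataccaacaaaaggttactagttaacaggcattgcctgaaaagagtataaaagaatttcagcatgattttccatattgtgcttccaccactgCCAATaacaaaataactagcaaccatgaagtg
In the ALB window the motif began 86 and 44 bases upstream of the start, and in the AFP window 125 bases upstream and 18 bases downstream of it. It was present in 34.6% of 35116 RefSeq promoter windows of the same length. RefSeq windows were held for 7 of the 10 members, in 11 entries, and not for TTR, ASGR1 and ASGR2. The cAMP response element TGACGTCA, found in 1.85% of windows, was in no member window. Its shorter form TGACG, found in 24.6% of windows and contained in the full element, was in HPX and in 1 of the 2 TF windows. That TF window (chr3:133661748-133662047) lies before the TF gene model, which begins at 133745956. The CCAAT box was also in the HPX window, in the other TF window and in 1 of the 3 RBP4 windows, and was not in the AHSG and SERPINA1 windows.

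In the human genome (GRCh38 coordinates of the gene models), ALB (ENSG00000163631) lies on chromosome 4 at 73397114 to 73421412 and AFP (ENSG00000081051) begins 9726 bases after its end, at 73431138 to 73456174, both on the plus strand. ASGR2 (chromosome 17, 7101322 to 7115700) and ASGR1 (chromosome 17, 7173431 to 7179564) are 57731 bases apart on the minus strand. The other members lie apart from each other, on chromosomes 3 (TF and AHSG), 10 (RBP4), 11 (HPX), 14 (SERPINA1) and 18 (TTR). The TF gene model overlaps SRPRB, whose counts came to 5.58% of those of TF. The AHSG model overlaps the antisense gene AC068631.1, with 12.9% of the AHSG counts. The sources used here do not say whether counting used strand, so reads in these overlaps cannot be told apart.

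Levels were compared between genes in transcripts per 1e6 (TPM), the counts per gene length scaled to the same total in each library. ALB was the highest member in every group, with a mean of 24052 ± 7307 TPM in the combination, 33697 ± 1664 TPM with fatty acids, 30559 ± 1773 TPM with formoterol and 18332 ± 4053 TPM in control (SD, n = 4 each). By mean TPM it ranked 3 among protein-coding genes in the combination, 2 with fatty acids, 2 with formoterol and 5 in control, or 2, 1, 1 and 3 when the length of the principal transcript was used in place of the table's gene length. In control the order was ALB, SERPINA1 (5593 ± 466), RBP4 (3416 ± 301), TTR (1042 ± 122), HPX (363 ± 64.5), TF (118 ± 28.7), ASGR1 (17.3 ± 1.83), ASGR2 (4.38 ± 0.83), AHSG (2.56 ± 0.657) and AFP (1.15 ± 0.228 TPM). No neighbours in this order overlapped between their 4 control libraries or between their 4 formoterol libraries. In the combination TTR overlapped HPX, HPX overlapped TF, ASGR2 overlapped AHSG and AHSG overlapped AFP. With fatty acids AHSG (12.8 ± 3.02 TPM) stood before ASGR2 (10.2 ± 2.04 TPM), and their libraries overlapped. The place of TF rests on its gene length of 26199 bases in the table, against 1449 to 4902 bases for the other 9 members. By principal transcript length the control means of TTR (1789 ± 205 TPM), HPX (547 ± 96.6 TPM) and ASGR1 (29.5 ± 3.12 TPM) were over 1.5 times as high. The control order was then the same, and with fatty acids ASGR2 (12.4 TPM) stood before AHSG (11.95 TPM), again with overlap. The principal transcript length of TF was still 20602 bases, against 957 (TTR) to 3532 (SERPINA1) bases for the other members. The unchanged order therefore does not test the place of TF.

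**Figure D1:**
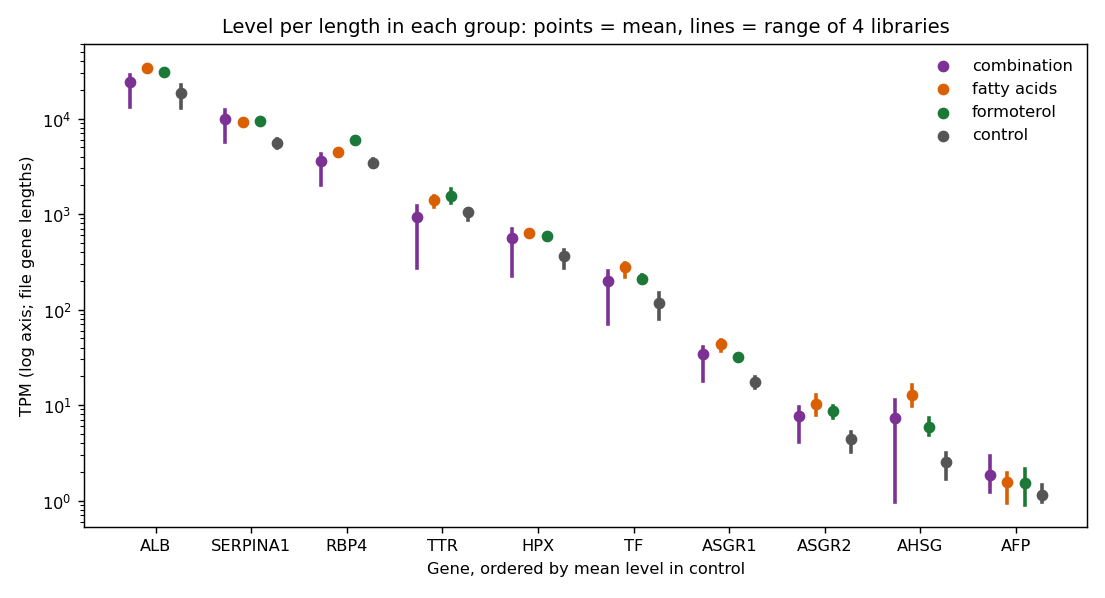
TPM of the 10 members on a log axis in each group, ordered by control mean, with a point at the mean and a line over the range of 4 libraries. ALB is highest and AFP lowest in every group by mean, and the combination spans a wider range than the other groups for most members.

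Set against control, fatty acids raised 7 of the 10 members (ALB, TF, AHSG, HPX, SERPINA1, ASGR1 and ASGR2) at an adjusted p under 0.05 by edgeR's quasi-likelihood test, where 8.93% of all genes tested were called higher. Formoterol raised 8 (the same 7 and RBP4), where 5.76% of all genes were called higher. The combination raised 4 (AHSG, SERPINA1, ASGR1 and ASGR2), where 7.58% of all genes were called higher. The median log2 change over the 10 members was 0.83 with fatty acids, 0.98 with formoterol and 0.70 with the combination, against medians of 0.01, -0.00 and 0.00 over all genes tested. With combination replicate 2 left out, the numbers raised were 9, 9 and 8 in the same order, with 10.6%, 8.00% and 8.51% of all genes called higher. Without control replicate 3 formoterol raised 5 and the combination 2, and the combination also raised 2 without its replicate 1 or 3. With counts scaled to library totals only, formoterol moved the median of all genes by -0.14 log2 units, and 485 genes were called higher and 1918 lower, against 1043 and 829 with TMM scaling. The same 8 members rose with formoterol under that scaling. These 3 comparisons share their control libraries. In bulk RNA, fewer cells of a type and less RNA per cell cannot be told apart.

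For 9 members, all but AFP, the 4 fatty acid libraries lay above the 4 control libraries with no overlap, and the same held for the 4 formoterol libraries. Groups did not overlap for 21.0% of all genes in the fatty acid comparison and for 16.7% in the formoterol comparison. The combination libraries overlapped control for all 10 members, where 16.3% of all genes did not overlap. Combination replicates 1, 3 and 4 alone lay clear of control for 7 members, beside 24.0% of all genes.

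**Figure D2:**
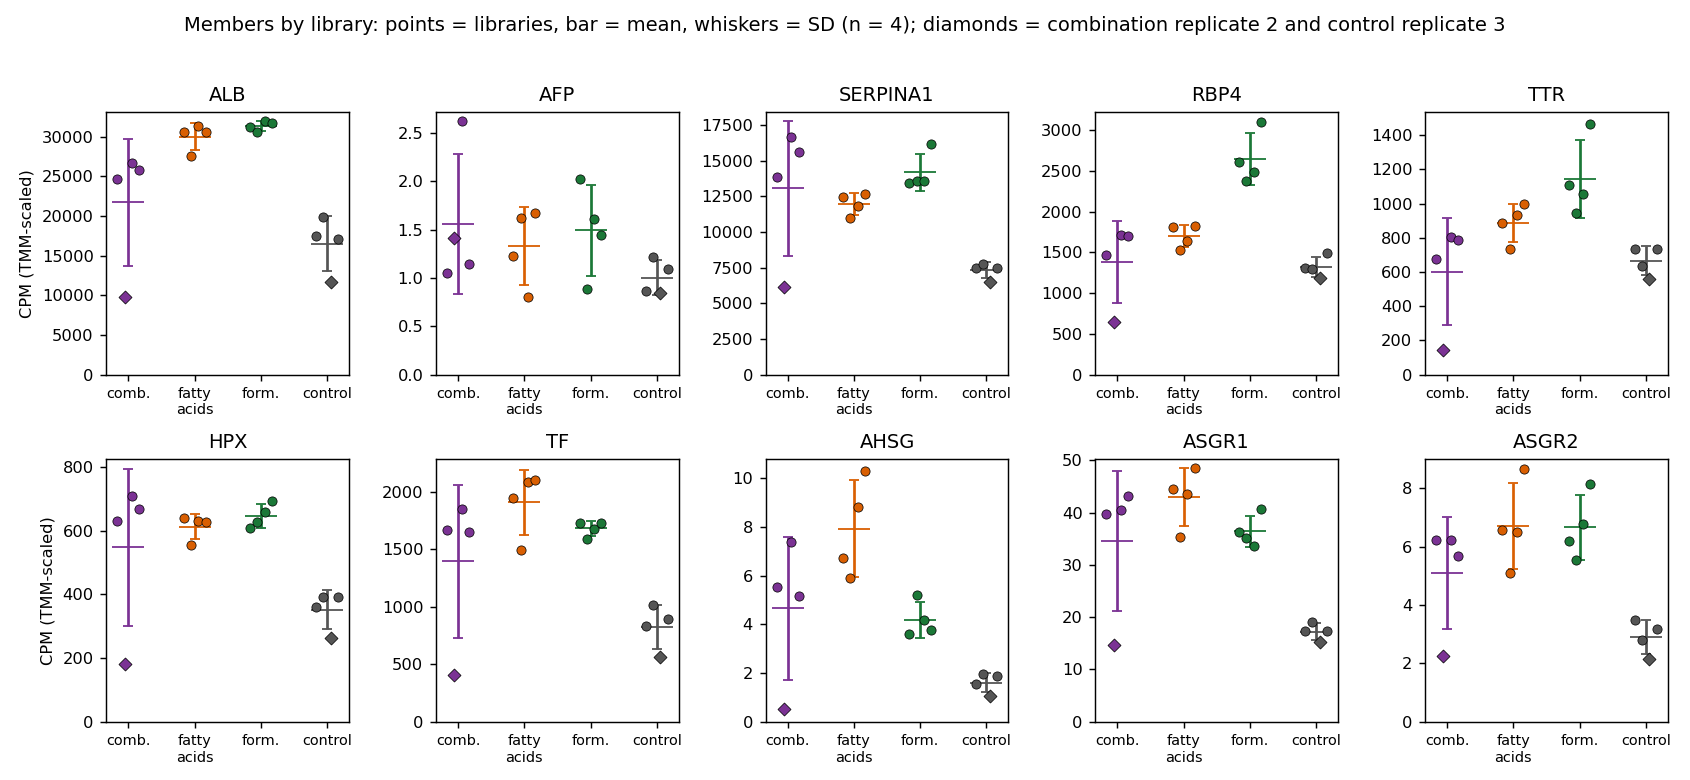
CPM (counts per 1e6, TMM-scaled) of each member in each of the 16 libraries by group, with the mean and SD of 4 libraries. For 9 members the 4 fatty acid and the 4 formoterol libraries lie above the 4 control libraries, while combination replicate 2, a diamond like control replicate 3, lies far below the other 3 combination libraries except for AFP.

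Among the carriers, albumin was the most abundant. ALB had 24588, 9823, 26671 and 25759 CPM in combination replicates 1 to 4 and 30556, 27566, 31274 and 30595 CPM in fatty acid replicates 1 to 4. With formoterol alone ALB had 31193, 30590.5, 31946 and 31699 CPM, against 17449, 19891, 11609 and 17068 CPM in control. Both single treatments lay above every control library, and combination replicate 2 lay below all of them. ALB rose 1.82-fold with fatty acids (log2 change 0.86 ± 0.20 SE, edgeR adjusted p = 0.0041) and 1.90-fold with formoterol (0.93 ± 0.20, adjusted p = 0.00458). In the combination its log2 difference from control was 0.40 ± 0.20 (adjusted p = 0.21), or 0.64 ± 0.09 without replicate 2 (adjusted p = 1.62e-05). All 4 combination libraries were below all 4 fatty acid and all 4 formoterol libraries, yet neither difference passed the test over 16 libraries. Without replicate 2, ALB was lower in the combination than with formoterol alone (-0.29 ± 0.10, adjusted p = 0.0415).

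AFP, the fetal relative of albumin, was the weakest member, with 27 to 107 counts per library. AFP had 1.05, 1.41, 2.62 and 1.14 CPM in the combination and 1.23, 1.62, 0.799 and 1.67 CPM with fatty acids. With formoterol alone AFP had 2.03, 0.883, 1.61 and 1.45 CPM, against 0.861, 1.22, 0.841 and 1.09 CPM in control. The groups overlapped in every comparison, and the highest library was combination replicate 3. No change of AFP passed the test, with log2 differences from control of 0.64 ± 0.34 in the combination, 0.41 ± 0.35 with fatty acids and 0.57 ± 0.34 with formoterol (edgeR adjusted p = 0.252, 0.485 and 0.337). In the combination without replicate 2 the difference of AFP was 0.68 ± 0.37 (adjusted p = 0.256). The coefficient of variation of AFP between libraries was 46.7% in the combination, 30.5% with fatty acids, 31.7% with formoterol and 18.2% in control.

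Transthyretin carries thyroxine and binds the retinol carrier RBP4 in plasma. RBP4 had 1463, 642, 1709.8 and 1706 CPM in the combination and 1806, 1533, 1640.4 and 1819.8 CPM with fatty acids. With formoterol alone RBP4 had 2607, 2373, 2492 and 3097 CPM, against 1313, 1296, 1188 and 1489.9 CPM in control. All 4 formoterol libraries were above all other 12 libraries. RBP4 rose 2.00-fold with formoterol (1.00 ± 0.19, edgeR adjusted p = 0.00174), while its difference with fatty acids was 0.36 ± 0.18 (adjusted p = 0.203), or 0.36 ± 0.08 without combination replicate 2 (adjusted p = 0.000886). In the combination RBP4 was 0.06 ± 0.18 from control (adjusted p = 0.885), or 0.30 ± 0.08 without replicate 2 (adjusted p = 0.0112). It was lower in the combination than with formoterol alone, by a log2 difference of -0.94 ± 0.19 (adjusted p = 0.00129), or -0.70 ± 0.08 without replicate 2 (adjusted p = 1.25e-06).

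TTR had 675, 144, 802 and 788 CPM in the combination and 888, 737, 935 and 995 CPM with fatty acids. With formoterol alone TTR had 1106, 945, 1055 and 1468 CPM, against 734, 636, 559.5 and 736 CPM in control. Combination replicate 2 was far below every other library, and the combination had a coefficient of variation of 51.7%, against 12.4% with fatty acids, 19.8% with formoterol and 12.8% in control. TTR passed the test against control in none of the 3 comparisons (log2 -0.15 ± 0.30 in the combination, 0.42 ± 0.30 with fatty acids and 0.78 ± 0.30 with formoterol; edgeR adjusted p = 0.825, 0.396 and 0.104). It passed, once combination replicate 2 was left out, with fatty acids (adjusted p = 0.00539) and with formoterol (adjusted p = 6.78e-06), and its difference in the combination was 0.18 ± 0.11 (adjusted p = 0.343). TTR was lower in the combination than with formoterol alone (-0.92 ± 0.30, adjusted p = 0.0347), or -0.60 ± 0.11 without replicate 2 (adjusted p = 0.000622). That call was lost in the DESeq2 test (adjusted p = 0.0656) and when formoterol replicate 1, 3 or 4 or combination replicate 1 was left out (adjusted p = 0.0531 to 0.114).

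Transferrin carries iron to cells. TF had 1671, 409, 1849 and 1645 CPM in the combination and 1943, 1492, 2088 and 2102 CPM with fatty acids. With formoterol alone TF had 1728, 1592, 1679.5 and 1729.7 CPM, against 837, 1015, 560.0 and 892 CPM in control. All 8 libraries of the single treatments exceeded the highest control library. TF rose 2.31-fold with fatty acids (1.21 ± 0.28, edgeR adjusted p = 0.00403) and 2.04-fold with formoterol (1.03 ± 0.28, adjusted p = 0.0199). In the combination its difference from control was 0.75 ± 0.27 (adjusted p = 0.0723), or 1.06 ± 0.12 without replicate 2 (adjusted p = 3.35e-07). Without control replicate 3, the lowest control library, the formoterol call was lost (adjusted p = 0.0831).

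Hemopexin binds free haem and delivers it to the liver. HPX had 631, 181, 709 and 668 CPM in the combination and 639.8, 555, 631 and 626 CPM with fatty acids. With formoterol alone HPX had 607, 627, 658 and 695 CPM, against 359, 392, 263 and 391 CPM in control. Apart from combination replicate 2, every treated library was above every control library. HPX rose 1.74-fold with fatty acids (0.80 ± 0.24, edgeR adjusted p = 0.0262) and 1.84-fold with formoterol (0.88 ± 0.24, adjusted p = 0.0235). In the combination its difference was 0.64 ± 0.24 (adjusted p = 0.0862), or 0.93 ± 0.09 without replicate 2 (adjusted p = 2.46e-08). These HPX calls were lost when certain single libraries were left out, with the highest values without control replicate 3 (adjusted p = 0.0914 with fatty acids and 0.0926 with formoterol). In the DESeq2 test the fatty acid call was lost (adjusted p = 0.0522).

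SERPINA1, alpha-1-antitrypsin, inhibits neutrophil elastase. SERPINA1 had 13882, 6139.5, 16642 and 15598 CPM in the combination and 12426, 10985, 11829 and 12698 CPM with fatty acids. With formoterol alone SERPINA1 had 13427, 13597, 13549.8 and 16151 CPM, against 7507, 7757, 6495 and 7499 CPM in control. Combination replicates 1, 3 and 4 were above all 4 fatty acid libraries, and replicate 2 was below all 4 control libraries. SERPINA1 rose in all 3 comparisons with control, 1.79-fold in the combination (0.84 ± 0.18, edgeR adjusted p = 0.0025), 1.64-fold with fatty acids (0.71 ± 0.18, adjusted p = 0.00822) and 1.94-fold with formoterol (0.96 ± 0.18, adjusted p = 0.0018). In the combination without replicate 2 its difference was 1.07 ± 0.07 (adjusted p = 9.11e-12). The difference between the combination and fatty acids was 0.12 ± 0.18 (adjusted p = 0.832). Left without combination replicate 2, SERPINA1 was higher in the combination than with fatty acids (0.36 ± 0.07, adjusted p = 0.00154), the only member to pass, where 1.78% of all genes were called higher. The SERPINA2 pseudogene, a near copy, held 10 counts over all libraries.

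AHSG, fetuin-A, keeps calcium phosphate in solution in plasma, and here it had the largest point estimates against control of the 10 members. AHSG had 5.55, 0.507, 7.40 and 5.18 CPM in the combination and 6.74, 5.90, 8.82 and 10.3 CPM with fatty acids. With formoterol alone AHSG had 3.60, 5.22, 4.19 and 3.76 CPM, against 1.54, 1.94, 1.06 and 1.87 CPM in control. Combination replicate 2 was the lowest of all 16 libraries, with 19 counts, and the other 11 treated libraries lay above all 4 control libraries. AHSG rose 2.90-fold in the combination (1.54 ± 0.43, edgeR adjusted p = 0.0195), 4.94-fold with fatty acids (2.30 ± 0.43, adjusted p = 0.000749) and 2.60-fold with formoterol (1.38 ± 0.43, adjusted p = 0.0456). It was 1.91 ± 0.23 in the combination without replicate 2 (adjusted p = 6.47e-07). The formoterol call was lost in the DESeq2 test (adjusted p = 0.0586) and when any 1 of the 4 control or 4 formoterol libraries was left out (adjusted p = 0.0654 to 0.141). It was also lost without any 1 of the fatty acid libraries (edgeR adjusted p = 0.0521 to 0.0579). The same held without combination replicate 1 (0.0545) or combination replicate 4 (0.0527). The combination call was lost without control replicate 1 (adjusted p = 0.0531), control replicate 3 (0.0648), combination replicate 1 (0.0514) or combination replicate 3 (0.0813).

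The receptor subunits ASGR1 and ASGR2 form the asialoglycoprotein receptor together. ASGR1 had 39.8, 14.7, 40.4 and 43.3 CPM in the combination and 44.5, 35.3, 43.6 and 48.5 CPM with fatty acids. With formoterol alone ASGR1 had 36.3, 35.1, 33.7 and 40.6 CPM, against 17.4, 19.1, 15.2 and 17.3 CPM in control. Combination replicate 2 was below all 4 control libraries and the other 11 treated libraries were above them. ASGR1 rose 2.00-fold in the combination (1.00 ± 0.21, edgeR adjusted p = 0.00175), 2.49-fold with fatty acids (1.32 ± 0.21, adjusted p = 0.000112) and 2.11-fold with formoterol (1.08 ± 0.21, adjusted p = 0.00205). For ASGR1 in the combination without replicate 2 the difference was 1.26 ± 0.10 (adjusted p = 5.12e-10).

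ASGR2 was the weaker subunit. ASGR2 had 6.22, 2.24, 6.23 and 5.68 CPM in the combination and 6.56, 5.08, 6.51 and 8.67 CPM with fatty acids. With formoterol alone ASGR2 had 6.20, 5.54, 6.79 and 8.14 CPM, against 3.50, 2.81, 2.16 and 3.19 CPM in control. Combination replicate 2 was within the control range and all other treated libraries were above it. ASGR2 rose 1.75-fold in the combination (0.80 ± 0.25, edgeR adjusted p = 0.0368), 2.30-fold with fatty acids (1.20 ± 0.25, adjusted p = 0.00201) and 2.29-fold with formoterol (1.20 ± 0.25, adjusted p = 0.00426). The combination call was lost when control replicate 2, 3 or 4 or combination replicate 1, 3 or 4 was left out (adjusted p = 0.0615 to 0.114), and it held without combination replicate 2 (1.05 ± 0.19, adjusted p = 0.000283).

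**Figure D3:**
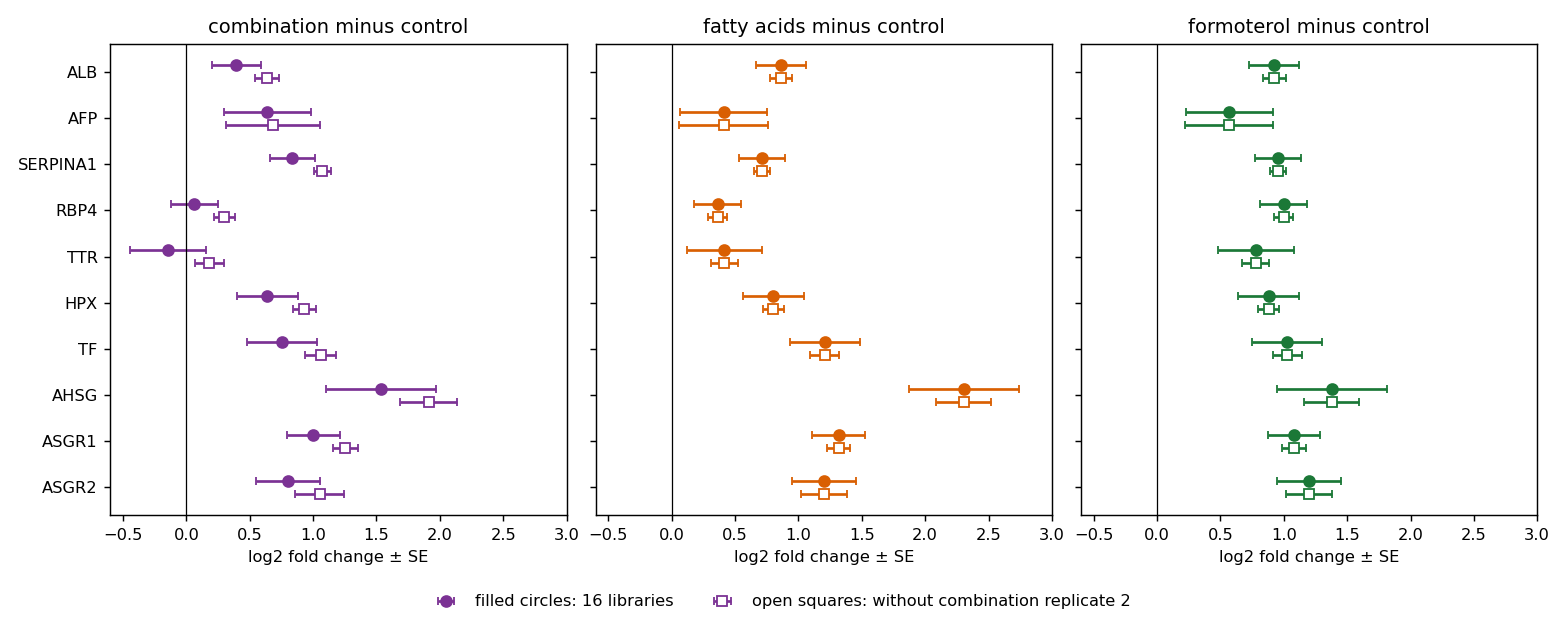
Log2 fold change from control with its SE for each member in the combination, with fatty acids and with formoterol, over 16 libraries (filled circles) and without combination replicate 2 (open squares). Leaving that library out narrows the error bars of 9 members in all 3 comparisons and moves the combination value of each member up.

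Set against fatty acids alone, the combination changed none of the 10 members by edgeR's test, where 2.80% of all genes were called in either direction. At an unadjusted p under 0.05 there was 1 member (ALB, -0.47 ± 0.20), and DESeq2 called 0. The largest difference was -0.77 ± 0.40 for AHSG (adjusted p = 0.405), and the SE of the 10 differences ran from 0.18 to 0.40. ALB alone did not overlap between these groups, beside 9.34% of all genes. Set against formoterol alone, the combination lowered 2 members, TTR and RBP4, where 8.97% of all genes were called lower. Those 2 and ALB did not overlap between the groups, beside 21.1% of all genes. After removal of combination replicate 2 the lowered members were ALB, TTR and RBP4, where 7.41% of all genes were called lower.

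Whether formoterol acted differently with and without fatty acids was tested as an interaction, the change of the combination from fatty acids minus the change of formoterol from control. The interaction was below 0 for all 10 members and passed the test for 6, where 3.38% of all genes passed with a negative value. ALB had -1.39 ± 0.28 (edgeR adjusted p = 0.00677), RBP4 -1.30 ± 0.26 (adjusted p = 0.00711), ASGR1 -1.40 ± 0.29 (adjusted p = 0.00793) and ASGR2 -1.60 ± 0.35 (adjusted p = 0.0121). TF had -1.48 ± 0.39 (adjusted p = 0.0283) and AHSG -2.15 ± 0.59 (adjusted p = 0.0362). Each of these 2 calls was lost when certain single libraries were left out, with the highest values without control replicate 3 (adjusted p = 0.0710 and 0.0878). The values of the other 4 were -1.34 ± 0.42 for TTR, -1.04 ± 0.34 for HPX, -0.83 ± 0.25 for SERPINA1 and -0.34 ± 0.48 for AFP (adjusted p = 0.0648, 0.0773, 0.0558 and 0.764). With combination replicate 2 removed, 9 members passed, where 3.60% of all genes passed with a negative value. Their values then ran from -1.77 ± 0.31 for AHSG to -0.60 ± 0.09 for SERPINA1, smaller than over 16 libraries, and AFP had -0.30 ± 0.51 (adjusted p = 0.83). In levels, ALB averaged 21710.2 CPM in the combination, 29998 CPM with fatty acids, 31357 CPM with formoterol and 16504 CPM in control.

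**Figure D4:**
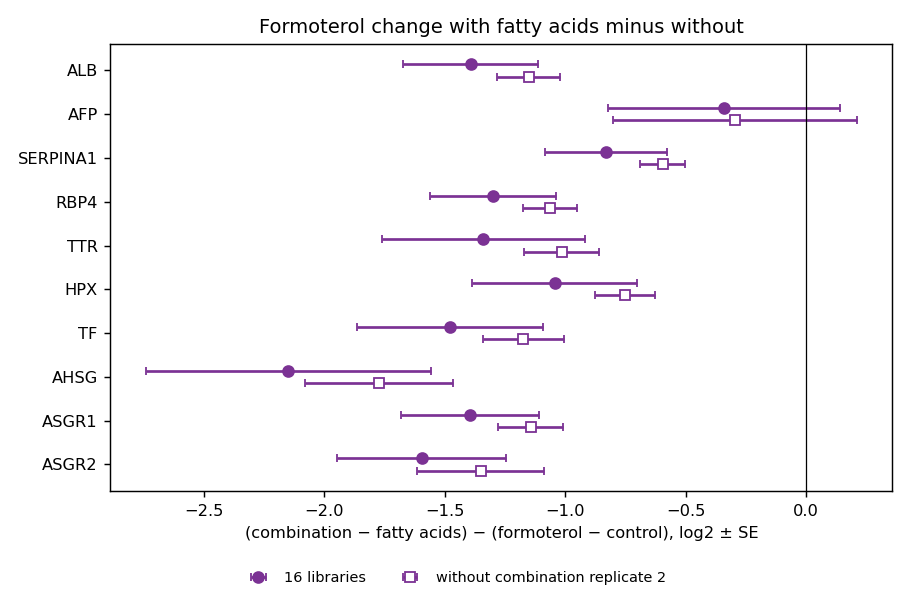
Interaction of each member in log2 units with its SE, over 16 libraries (filled circles) and without combination replicate 2 (open squares), with a line at 0. All 10 members lie left of 0, from -2.15 for AHSG to -0.34 for AFP, and each moves toward 0 without that library.

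Within a library, 3 ratios of TPM compared partners directly. The ASGR1 to ASGR2 ratio was 4.45 ± 0.38 in the combination, 4.29 ± 0.40 with fatty acids, 3.65 ± 0.44 with formoterol and 3.96 ± 0.65 in control (SD, n = 4 each). The RBP4 to TTR ratio was 4.52 ± 1.91 in the combination, 3.18 ± 0.26 with fatty acids, 3.86 ± 0.28 with formoterol and 3.29 ± 0.24 in control. Its combination mean rested on replicate 2, at 7.39, with the other 3 at 3.52 to 3.58. AFP per 1e6 ALB was 88.4 ± 51.8 in the combination, 48.3 ± 15.7 with fatty acids, 51.0 ± 15.4 with formoterol and 67.5 ± 10.5 in control. The tests used log2 ratios of CPM with a prior count of 2, not the TPM ratios printed here. Over 15 two-sided exact permutation tests of that log2 ratio (5 pairwise comparisons of 3 ratios), none passed after Benjamini-Hochberg adjustment. The lowest p was 0.0286, the smallest that 4 against 4 libraries allow, with an adjusted p of 0.143. It occurred for ASGR1 to ASGR2 in the combination against formoterol, and for RBP4 to TTR in the combination against fatty acids and against control. Without combination replicate 2 the RBP4 to TTR log2 differences fell to 0.17 against fatty acids and 0.11 against control. By principal transcript length every ratio shifts by a factor that is the same in all libraries, which leaves the log2 differences as they are. The ASGR1 to ASGR2 ratio was then 6.22 in the combination, 5.99 with fatty acids, 5.10 with formoterol and 5.53 in control, and the RBP4 to TTR ratio 1.99, 1.40, 1.70 and 1.45 in the same order.

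**Figure D5:**
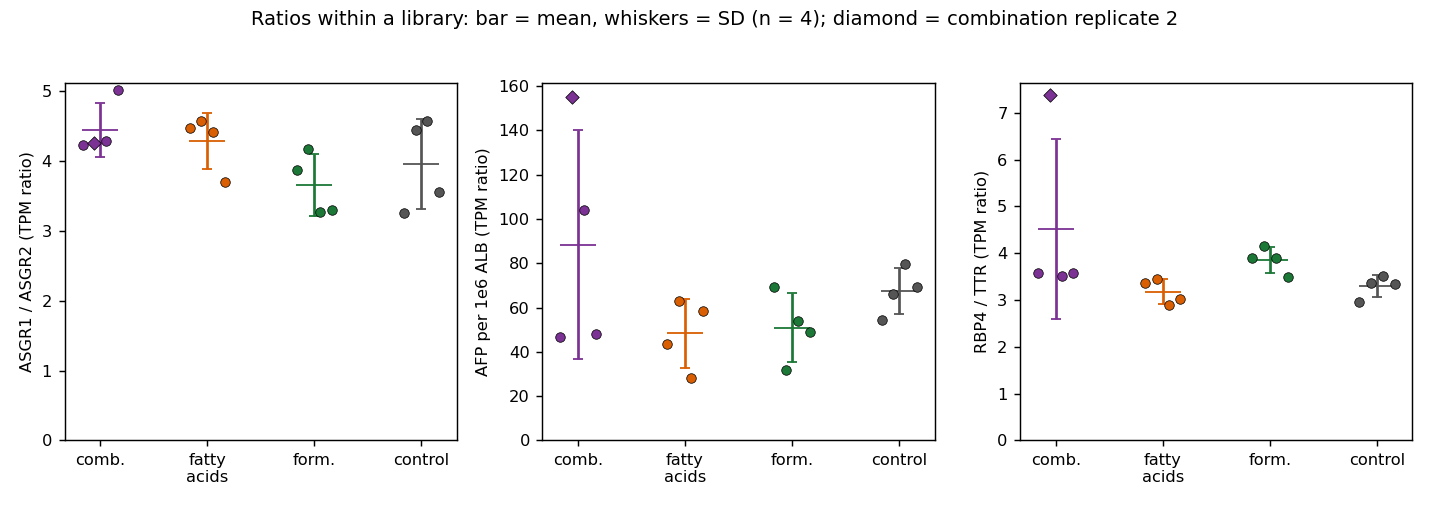
Ratios of TPM within a library for ASGR1 to ASGR2, AFP per 1e6 ALB and RBP4 to TTR, with 1 point per library, a bar at the mean and whiskers of 1 SD (n = 4). A diamond marks combination replicate 2, which is at 7.39 for RBP4 to TTR while the other 15 libraries lie between 2.90 and 4.15.

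Across the 16 libraries the members were compared by the root mean square (RMS) difference of their log2 values, each centred on its own mean. The closest pair was ALB with HPX, at 0.15, followed by TF with HPX and ASGR1 with ASGR2. The most distant was AFP with AHSG, at 1.11. Among 11556 other protein-coding genes above 2 CPM, those closest to ALB were ADH1C, an alcohol dehydrogenase (0.0887), UGT2A3, a glucuronosyltransferase (0.0887), and MTTP, which loads lipid onto apolipoprotein B (0.0922), where ALB itself had an RMS of 0.52. Closest to ASGR1 (RMS 0.60) were APOA1, the main protein of high-density lipoprotein (0.145), CYP2E1, a cytochrome P450 (0.156), and SERPINA7, which binds thyroxine (0.171). Closest to AFP (RMS 0.45) were MAGOHB (0.305), HHAT (0.32) and CDKN3 (0.33), all at a distance not far below its own spread. Without combination replicate 2 the distances to ALB were 0.0745, 0.0833 and 0.0845 for its 3 genes in the order named. To ASGR1 they were 0.102 for APOA1, 0.0965 for CYP2E1 and 0.147 for SERPINA7. To AFP they were 0.285 for MAGOHB, 0.326 for HHAT and 0.303 for CDKN3. The libraries share their depth and scaling in all these distances.

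Other plasma carriers and protease inhibitors of hepatocytes were followed as a list of 35 genes, 33 of them tested. With fatty acids 13 rose and 3 fell, with a median of 0.57, and with formoterol 14 rose and 1 fell, with a median of 0.71. In the combination 7 rose and 3 fell against control, with a median of 0.44. Of all genes tested, 7.62% were called lower with fatty acids, 4.57% with formoterol and 6.68% in the combination, beside the shares called higher given above. Without combination replicate 2, 19 rose and 3 fell with fatty acids, 23 rose and 1 fell with formoterol, and 19 rose and 3 fell in the combination, where 8.75%, 5.98% and 6.67% of all genes were called lower. AFM, afamin, a relative of albumin that binds vitamin E, averaged 25.9 ± 11.9 CPM in the combination, 47.3 ± 4.15 CPM with fatty acids, 17.4 ± 1.45 CPM with formoterol and 11.0 ± 1.22 CPM in control (SD, n = 4 each). AFM rose by 2.10 ± 0.25 with fatty acids and 1.23 ± 0.25 in the combination (edgeR adjusted p = 4.33e-06 and 0.0015), and its formoterol difference was 0.66 ± 0.25 (adjusted p = 0.0982). GC, the vitamin D carrier, rose by 1.04 ± 0.25 with fatty acids and 0.99 ± 0.25 with formoterol (adjusted p = 0.00626 and 0.0144). HP, haptoglobin, which binds haemoglobin, rose by 0.62 ± 0.18 with formoterol (adjusted p = 0.0346) and differed by 0.26 ± 0.18 with fatty acids (adjusted p = 0.38).

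Some carriers went the other way. SERPINA5, the protein C inhibitor, averaged 184 ± 5.44 CPM in the combination, 149.5 ± 3.15 CPM with fatty acids, 316 ± 15.0 CPM with formoterol and 299 ± 13.8 CPM in control. It fell by 1.00 ± 0.05 on the log2 scale with fatty acids (edgeR adjusted p = 2.5e-11) and differed by 0.08 ± 0.05 with formoterol (adjusted p = 0.398). AZGP1, a zinc-binding plasma glycoprotein, fell in all 3 comparisons with control, with log2 changes of -1.31 ± 0.09 in the combination, -0.93 ± 0.09 with fatty acids and -0.62 ± 0.09 with formoterol (adjusted p = 3.42e-09, 3.5e-07 and 0.000243). The interaction passed with a negative value for 14 of the 33 tested carriers with a median of -1.05 over the list. Without combination replicate 2 it passed with a negative value for 19 and with a positive value for 2, where 1.94% of all genes passed with a positive value.

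Partners of these proteins (receptors, enzymes that add or remove sialic acid, and handling of iron and retinol) made a list of 22 genes, 19 of them tested. With fatty acids 4 rose and 2 fell, with formoterol 5 rose and 2 fell, and in the combination 2 rose and 1 fell against control, to be read against the shares of all genes given for the carriers. After combination replicate 2 was left out, 20 were tested, of which 6 rose and 2 fell with fatty acids, 7 rose and 2 fell with formoterol, and 5 rose and 1 fell in the combination. TFRC, the transferrin receptor, rose by 0.38 ± 0.06 with fatty acids and 0.24 ± 0.06 in the combination (edgeR adjusted p = 7.94e-05 and 0.00789), with a difference of 0.07 ± 0.06 with formoterol (adjusted p = 0.526). LRP1, a receptor that takes up haem with hemopexin, fell with formoterol (-0.50 ± 0.09, adjusted p = 0.00131) and differed by 0.15 ± 0.09 with fatty acids (adjusted p = 0.306). FCGRT, which recycles albumin, rose by 0.38 ± 0.11 with fatty acids and 0.50 ± 0.11 with formoterol (adjusted p = 0.0158 and 0.00469). ST6GAL1, which adds sialic acid to secreted glycoproteins, rose by 1.04 ± 0.18 with fatty acids, 0.61 ± 0.18 with formoterol and 0.82 ± 0.18 in the combination (adjusted p = 0.00039, 0.037 and 0.00357). ST3GAL4, another sialyltransferase, fell with fatty acids (-0.62 ± 0.10, adjusted p = 0.000128). STRA6, a receptor for RBP4, had 0 counts in every library.

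Markers of other cell types moved with some groups, and their part in the results was not tested. Of 12 cholangiocyte markers 7 were tested and EPCAM had 0 counts everywhere. Their summed level was 428 to 456 CPM in the combination, 451 to 501 CPM with fatty acids, 289 to 299 CPM with formoterol and 272 to 291 CPM in control. KRT19 averaged 126 ± 10.2, 168 ± 11.5, 55.4 ± 2.78 and 58.7 ± 6.40 CPM in those groups. SOX9 went the other way, at 22.1 ± 2.48, 29.2 ± 2.30, 47.5 ± 2.49 and 47.9 ± 3.38 CPM in the same order. Of the 7 tested, 4 rose and 1 fell with fatty acids and in the combination, and 1 rose with formoterol. Without combination replicate 2 these were 5 and 1 with fatty acids and in the combination, and 1 with formoterol. The shares of all genes given for the carriers apply here too. The 14 proliferation genes summed to 592 to 1054 CPM in the combination, with replicate 2 the highest and the other 3 at 592 to 613, to 395 to 537 CPM with fatty acids, 295 to 323 CPM with formoterol and 246 to 297 CPM in control. Of 10 stellate and fibroblast markers 8 were tested and COL1A2 had 0 counts everywhere. They summed to 597 to 872 CPM in the combination, with replicate 2 the highest, 766 to 910 CPM with fatty acids, 450 to 487 CPM with formoterol and 659 to 845 CPM in control. DCN made up most of this sum. It rose with fatty acids (0.25 ± 0.08, edgeR adjusted p = 0.0269) and fell with formoterol (-0.62 ± 0.08, adjusted p = 2.54e-05). COL1A1 fell with fatty acids (-0.94 ± 0.20, adjusted p = 0.00194). No other tested gene of this list passed against control over 16 libraries. Macrophage and leukocyte markers (4 of 8 tested) summed to 17.99 to 28.9 CPM in the combination, 21.1 to 24.3 CPM with fatty acids, 26.7 to 32.9 CPM with formoterol and 24.1 to 28.8 CPM in control. CD14 made up most of this sum. ADGRE1 rose with fatty acids (0.95 ± 0.26, edgeR adjusted p = 0.0147) and in the combination (0.94 ± 0.26, adjusted p = 0.0164). No other tested gene of this list passed against control over 16 libraries. Endothelial markers (2 of 6 tested, CDH5 at 0) summed to 121 CPM in combination replicate 2 and 52.0 to 73.6 CPM in the other 3 combination libraries, 159 to 173 CPM with fatty acids, 35.2 to 48.1 CPM with formoterol and 119 to 139 CPM in control. Most of that sum was KDR, a receptor for vascular endothelial growth factor, which rose with fatty acids (0.44 ± 0.15, edgeR adjusted p = 0.0441) and fell with formoterol (-1.44 ± 0.15, adjusted p = 3.71e-06) and in the combination (-0.77 ± 0.15, adjusted p = 0.000939). Of 16 other hepatocyte markers, all tested, 5 rose and 1 fell with fatty acids, 9 rose with formoterol, and 4 rose and 4 fell in the combination. Leaving out combination replicate 2, 7 rose and 1 fell with fatty acids, 12 rose with formoterol, and 8 rose and 5 fell in the combination. These counts are to be read against the shares of all genes given for the carriers. In the combination CYP3A4 fell (-1.72 ± 0.26, edgeR adjusted p = 6.46e-05) and CPS1 rose (0.62 ± 0.07, adjusted p = 3.26e-06). As in the members, the interaction passed with a negative value for 10 of these 16 markers, beside 3.38% of all genes. Its median over the 16 was -1.53. Without combination replicate 2 it passed with a negative value for 12, beside 3.60% of all genes. The 16 markers summed to 5192 to 7697 CPM in the combination, with replicate 2 the lowest, 7659 to 9985 CPM with fatty acids, 6566 to 7812 CPM with formoterol and 5397 to 7751 CPM in control. APOB and CYP3A4 made up most of this sum, so it does not describe the markers in general. APOB averaged 5152, 5401, 3646 and 3110 CPM in the same order of groups, and CYP3A4 663, 1917, 2374 and 2181 CPM.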

How the data were processed

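The authors deposited 1 table of counts per gene for all 16 libraries. The submitters' processing notes name HISAT2 2.0.5 and DESeq2. They also give the build as mm39, a mouse genome, whereas the 58735 gene IDs of the table are all human and match the coordinates of GENCODE release 29 (GRCh38), so the counts were read as human. The counting program and its use of strand are not known from the sources used here. Libraries held 32.5 × 1e6 to 65.7 × 1e6 counts. The errors given cover the spread between libraries as well as counting, and for ALB the SE against control with fatty acids was 0.20 over 16 libraries and 0.09 without combination replicate 2.

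Genes were filtered with filterByExpr (18121 kept, 99.94% of counts), TMM-scaled and fitted with edgeR 4.0.16 quasi-likelihood tests on 4 group means of 4 libraries, with Benjamini-Hochberg adjustment over all genes tested at 0.05. CPM use TMM-scaled totals, log2 values a prior count of 2, and TPM the table's gene lengths. Ratios were compared by exact permutation tests. The edgeR fit was tried on simulated counts that held no outlying library, which does not cover a library like combination replicate 2.

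The members and lists were chosen with earlier results of these data known. Named genes are the members, 12 genes fixed by name, up to 2 genes per list and comparison with the smallest p past the threshold, and the 3 genes closest to ALB, AFP and ASGR1; not all are reported here. Alternatives were other scalings and filters, DESeq2 1.42.0, a replicate block, only the groups compared, and each library left out. Leaving out combination replicate 2 with control replicate 3, and TPM by principal transcript length, were added after seeing the data. Software was R 4.3.3, Python 3.11.15, pandas 2.3.3, numpy 2.4.6 and matplotlib 3.10.9.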

Additional observations from a re-analysis of the deposited data

Results flagged for a closer look

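In 9 of 52 sets of 4 libraries (10 members and 3 ratios in 4 groups), 1 library lay so far from the other 3 that it exceeded Dixon's 95% critical value, where chance gives about 1 set in 20. The sets share libraries and the ratios reuse member genes, so they are not independent. Their number cannot be tested against that rate. Combination replicate 2 was the low library for ALB (9823 CPM), TF (409 CPM), HPX (181 CPM), ASGR1 (14.7 CPM) and ASGR2 (2.24 CPM), and the high one for the RBP4 to TTR ratio (7.39). The other 3 were HPX in fatty acid replicate 2 (555 CPM, low), SERPINA1 in formoterol replicate 4 (16151 CPM, high) and the ASGR1 to ASGR2 ratio in combination replicate 4 (5.02, high).

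For 6 members the log2 change with formoterol differed between cells with and without fatty acids by the interaction test of edgeR, with adjusted p under 0.05. The differences were -1.39 ± 0.28 (SE) for ALB, -1.48 ± 0.39 for TF, -1.30 ± 0.26 for RBP4, -2.15 ± 0.59 for AHSG, -1.40 ± 0.29 for ASGR1 and -1.60 ± 0.35 for ASGR2. Without combination replicate 2 they were -1.15 ± 0.13, -1.17 ± 0.17, -1.06 ± 0.11, -1.77 ± 0.31, -1.14 ± 0.13 and -1.35 ± 0.26 in the same order, and all 6 still passed.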

How the results depend on the processing

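Of 1430 member values under the alternatives, 1290 kept their direction and side of the threshold, 61 lost the call, 59 gained it and 20 changed sign. None of the sign changes was in fatty acids or formoterol against control or in the interaction. The cause of these changes was not tested. Members called in the combination against control numbered 7 with no filter, 2 with only the groups compared and 8 with combination replicate 2 and control replicate 3 both left out. In the combination against fatty acids they numbered 6 with no filter and 2 with both left out, and genes called numbered 880 with no filter, 275 with only the groups compared and 795 with DESeq2, against 507. In the combination against formoterol members numbered 5 with no filter, 1 with only the groups compared and 1 with DESeq2. Genes called in the interaction numbered 1523 with no filter, against 997. With total counts only, the combination against formoterol gave 2965 genes higher and 696 lower, against 1717 and 1625, and the interaction 1030 higher and 351 lower, against 384 and 613, with median shifts of 0.14 and 0.17.

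Leaving out each library in turn, genes called ranged over 2276 to 3587 for fatty acids, 1002 (without control replicate 3) to 2588 for formoterol and 1975 to 2811 for the combination against control. They ranged over 302 to 590 for the combination against fatty acids, 2479 to 3399 against formoterol and 444 (without control replicate 3) to 1325 for the interaction. Members called ranged over 6 to 9, 5 to 9, 2 to 8, 0 to 1, 1 to 3 and 4 to 9 in the same order. In the combination against control, RBP4 ranged from -0.057 without combination replicate 3 (-0.056 without combination replicate 4) to 0.30, and TTR from -0.32 to 0.18 without combination replicate 2 (0.11 with control replicate 3 left out as well). Against fatty acids, SERPINA1 ranged from -0.014 to 0.36 and AFP from -0.15 to 0.38, both lowest without combination replicate 3, and HPX from -0.31 to 0.13 without combination replicate 2 (0.14 with both left out). Against formoterol, SERPINA1 ranged from -0.26 to 0.12, TF from -0.44 to 0.033, HPX from -0.39 to 0.050 and ASGR1 from -0.20 to 0.17, all highest without combination replicate 2 (with both left out 0.13, 0.044, 0.061 and 0.19). There ASGR1 was also 0.032 with total counts only, AHSG ranged from -0.17 without combination replicate 3 to 0.53, and AFP from -0.31 without combination replicate 3 (-0.11 without formoterol replicate 2) to 0.25.

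The log2 ratio of ASGR1 to ASGR2 ranged over 0.04 to 0.20 for fatty acids, -0.20 to -0.03 for formoterol and 0.09 to 0.25 for the combination against control, and over -0.016 (without fatty acid replicate 4; -0.00602 without combination replicate 4) to 0.086 and 0.23 to 0.36 for the combination against fatty acids and formoterol. For AFP to ALB the same ranges were -0.69 to -0.30, -0.61 to -0.24, -0.12 (without combination replicate 2) to 0.46, 0.41 to 0.99 and 0.32 to 0.90. For RBP4 to TTR they were -0.10 to -0.01, 0.18 to 0.28, 0.11 to 0.47, 0.17 to 0.52 and -0.11 (without combination replicate 2) to 0.24.

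Same-numbered libraries deviated together with a median correlation of 0.0036 over 24 pairs, against -0.0016 over 72 other pairs. The main tests used no pairing, and these values do not show whether same-numbered libraries were handled together. With a replicate block 7 members were called for fatty acids, 7 for formoterol (AHSG lost, adjusted p = 0.0509) and 4 for the combination against control, and 8 in the interaction (SERPINA1 and TTR gained, adjusted p = 0.0372 and 0.0284). AFP had only 27 to 107 counts per library and a coefficient of variation of 18.2% to 46.7% within groups, and the part of counting error in that spread was not tested.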

Other observations

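Genes of protein traffic at the endoplasmic reticulum were measured as a list of 27. It holds genes of exit and cargo receptors, and also the SEC61 channel genes and the KDELR genes. With formoterol 14 rose against control, with fatty acids 6 rose and 1 fell, and in the combination 5 rose and 2 fell, at an edgeR adjusted p under 0.05. With combination replicate 2 left out, 17 rose with formoterol, 7 rose and 1 fell with fatty acids, and 9 rose and 1 fell in the combination. Of all genes tested, 5.76% were called higher and 4.57% lower with formoterol, 8.93% and 7.62% with fatty acids, and 7.58% and 6.68% in the combination. SURF4, a cargo receptor of the endoplasmic reticulum, averaged 301 ± 26.2 CPM in the combination, 289.7 ± 9.42 CPM with fatty acids, 338 ± 13.5 CPM with formoterol and 272 ± 8.01 CPM in control (SD, n = 4 each). It rose by 0.31 ± 0.06 on the log2 scale with formoterol (adjusted p = 0.00239) and differed by 0.09 ± 0.06 with fatty acids (adjusted p = 0.362). LMAN1, which carries glycoproteins to the Golgi, rose by 0.27 ± 0.06 with formoterol (adjusted p = 0.0088). KDELR3, which returns resident proteins to the endoplasmic reticulum, rose in all 3 comparisons with control, by 1.56 ± 0.14 in the combination, 1.38 ± 0.14 with fatty acids and 0.75 ± 0.14 with formoterol (adjusted p = 1.19e-07, 6.04e-07 and 0.00201).

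Transcription factors known from the albumin and alpha-fetoprotein genes were measured as a list of 21, with 20 tested. With fatty acids 8 rose and 3 fell, with formoterol 6 rose and 1 fell, and in the combination 3 rose and 4 fell against control. Without combination replicate 2, 8 rose and 3 fell with fatty acids, 8 rose and 1 fell with formoterol, and 8 rose and 3 fell in the combination. These counts are to be read against the shares of all genes given above for the carriers. CEBPA rose by 0.92 ± 0.20 with fatty acids and 0.77 ± 0.20 with formoterol (edgeR adjusted p = 0.00248 and 0.0161), and its difference in the combination was 0.53 ± 0.20 (adjusted p = 0.0824). CEBPB fell with fatty acids (-0.34 ± 0.10, adjusted p = 0.0199) and in the combination (-0.49 ± 0.10, adjusted p = 0.00133). Its difference with formoterol was -0.21 ± 0.10 (adjusted p = 0.205). HNF4A averaged 123 ± 32.9 CPM in the combination, 122 ± 8.68 CPM with fatty acids, 163 ± 11.2 CPM with formoterol and 95.3 ± 4.14 CPM in control. It rose by 0.77 ± 0.13 with formoterol (adjusted p = 0.000781) and differed by 0.36 ± 0.13 with fatty acids (adjusted p = 0.0666). TEF, a factor of the circadian clock family, fell in all 3 comparisons with control (the combination, fatty acids and formoterol), by 0.76 ± 0.07, 0.59 ± 0.07 and 0.40 ± 0.07 in the same order (adjusted p = 2.8e-07, 6.83e-06 and 0.00158).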
